A study of Mus musculus with 12 samples.

Results

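The IL-12, IL-23 and IL-17 axis was examined through 10 genes given by name, chosen with earlier results of these data known. They include the ligand subunits Il23a, Il12a and Il12b and the IL-12 and IL-23 receptor chains Il12rb1 and Il12rb2. The others are the IL-17 receptor chains Il17ra, Il17rc, Il17rd and Il17re, and the IL-22 receptor chain Il22ra1. Of the 10 genes, 9 are among the 14533 genes in the count table, and Il12a is not. Epidermis scraped from frozen dorsal skin of untreated C57BL/6 mice was sequenced, with 6 WT mice and 6 Pparg-/-epi mice and 1 library per mouse. The study describes this skin as non-lesional. All 12 mice carried Pparg (flox/flox), and the groups differed in Cre driven by the cytokeratin 14 promoter, which was absent in WT mice (Cre-/-) and carried as Cre+/- in Pparg-/-epi mice. This promoter is active in keratinocytes of the epidermis and hair follicle, so immune and dermal cells in the scrapings keep the floxed gene. The mice were 8 to 13 weeks old by the sample labels, and both sexes were present in each group.

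IL-12 and IL-23 are heterodimers that share the p40 subunit encoded by Il12b. IL-12 pairs it with p35 (Il12a) and acts through Il12rb1 and Il12rb2 to favour interferon-producing lymphocytes, while IL-23 pairs it with p19 (Il23a) and acts through Il12rb1 and Il23r to sustain lymphocytes that make IL-17 and IL-22. Dendritic cells and macrophages are the best known sources of both cytokines, and keratinocytes carry the receptors for IL-17 and IL-22 and respond with chemokines, antimicrobial peptides and stress keratins.

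In Pparg-/-epi mice the transcripts for both subunits of IL-23, Il23a and Il12b, were higher and that of Il12rb2 was lower. Il12b is shared with IL-12, protein was not measured, and counts per mouse were low (0 to 47 for Il23a and 2 to 26 for Il12b). None of the receptor chains for IL-17 or IL-22 among the 9 genes passed the test. A gene was called altered where its log2 fold change was 0.6 or more in size with an adjusted p under 0.05 in edgeR's quasi-likelihood test (Benjamini-Hochberg, over all 14533 genes), and every adjusted p below is from that test unless another is named. Of the 9 genes, 3 were altered, where 10.3% of all genes were altered (5.19% were higher in Pparg-/-epi mice and 5.08% were lower). This count of 3 is no evidence about the axis as a whole, because the table holds only genes above 0.5 CPM (counts scaled to the library total) in at least 6 mice, and Il23a and Il12b met that level in all 6 Pparg-/-epi mice and in 1 WT mouse each. They entered the table through the group in which they were higher. The other 7 genes were above that level in all 12 mice. Nothing in the labels says whether libraries came from separate litters, and the p-values measure the spread between these mice.

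**Figure D1:**
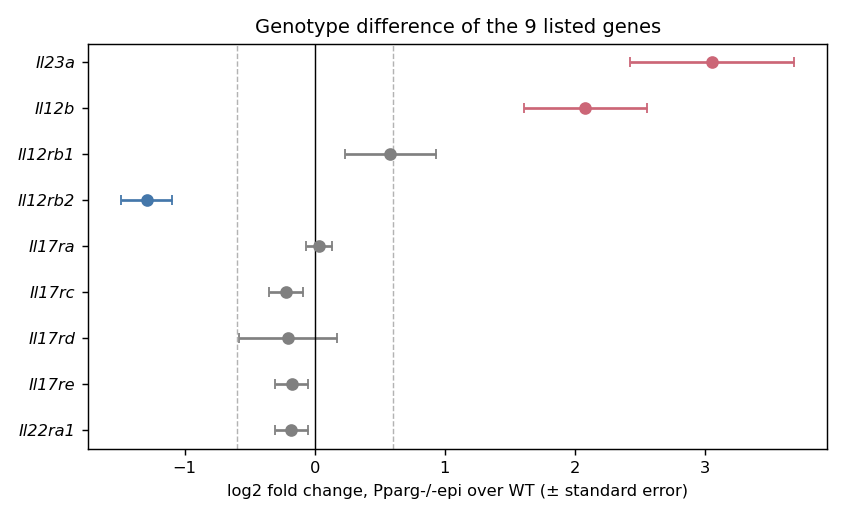
Log2 fold change of each of the 9 genes in Pparg-/-epi over WT mice (horizontal axis, bars are ± 1 standard error of the edgeR fit, dashed lines mark 0.6 in either direction). Il23a and Il12b lie to the right at 3.05 and 2.08, Il12rb2 lies to the left at -1.29, and the remaining 6 genes (grey) were not altered.

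Total counts per library ran from 10120840 to 18851255, so that 3 counts, taken as the floor, were worth 0.156 to 0.32 CPM after scaling. Pparg, summed over the whole gene, had 5 to 269 counts in WT mice against 16 to 107 counts in Pparg-/-epi mice (log2 fold change -0.10, SE, the standard error, 0.71, adjusted p = 0.949), and these counts include the shortened transcript that recombination leaves. The keratinocyte markers Krt5, Krt14, Krt1, Krt10, Trp63 and Dsg3 were present in every library, with a summed level of 13800 to 45900 CPM over both groups. The scrapings also held dermis, since 6 fibroblast markers summed to 1010 to 34500 CPM in WT mice against 5320 to 11200 CPM in Pparg-/-epi mice. WT replicate 2 stood apart from the other WT mice with the highest sums of macrophage and monocyte markers (836 CPM) and of Langerhans and dendritic cell markers (3088 CPM) of its group. In bulk RNA of this kind, fewer cells of a type and less RNA per cell cannot be told apart.

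Il23a encodes p19, the subunit that is particular to IL-23, and lies on chromosome 10 from 128296140 to 128298084 of mm10 (minus strand). It had 1, 3, 3, 0, 1 and 11 counts in WT replicates 1 to 6 and 47, 43, 43, 10, 15 and 15 counts in Pparg-/-epi replicates 7 to 12. In 5 of the 6 WT mice it was therefore at or under the floor of 3 counts. Scaled to the library with TMM factors (the CPM used from here on), Il23a was 0.219 ± 0.257 CPM in WT mice against 1.86 ± 0.786 CPM in Pparg-/-epi mice (mean ± SD, n = 6 each). The groups did not overlap, which was so for 7.9% of all genes, and all Pparg-/-epi mice lay above all WT mice. WT replicate 6 at 0.692 CPM came near Pparg-/-epi replicate 10 at 0.832 CPM. The log2 fold change was 3.05 (SE 0.63, adjusted p = 0.00673). An exact permutation test of log2 CPM over every way of dividing the mice 6 to 6 gave p = 0.00216 (two-sided), the smallest that 6 mice against 6 allow. Summed over the mice, 173 counts stood against 19, a ratio of 9.14 with an exact 95% interval of 5.68 to 15.6 that covers counting error only. Because Il23a entered the table through the Pparg-/-epi mice, its p-values, separation and ratio are a description and not independent support. In the 7 female mice alone Il23a did not pass the test (log2 fold change 2.95, adjusted p = 0.0902).

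Il12b encodes p40, the subunit common to IL-12 and IL-23, and lies on chromosome 11 from 44400063 to 44414677 (plus strand). WT mice had 4, 6, 10, 3, 5 and 2 counts and Pparg-/-epi mice 12, 23, 26, 23, 22 and 25 counts, in the order of the replicates. Il12b was 0.394 ± 0.342 CPM in WT mice against 1.61 ± 0.556 CPM in Pparg-/-epi mice (mean ± SD, n = 6 each). The groups overlapped, because WT replicate 3 at 1.07 CPM was above Pparg-/-epi replicate 7 at 0.624 CPM, while the 5 other Pparg-/-epi mice lay at 1.39 CPM or more. The log2 fold change was 2.08 (SE 0.47, adjusted p = 0.011), and the exact permutation test gave p = 0.00433 (two-sided). The summed counts of 131 and 30 gave a ratio of 4.38 with an exact 95% interval of 2.93 to 6.75 for counting error only. Because Il12b also entered the table through the Pparg-/-epi mice, its p-values and ratio are a description and not independent support. Without the 4 WT mice named 29-226, Il12b did not pass the test (log2 fold change 2.44, adjusted p = 0.0557).

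**Figure D2:**
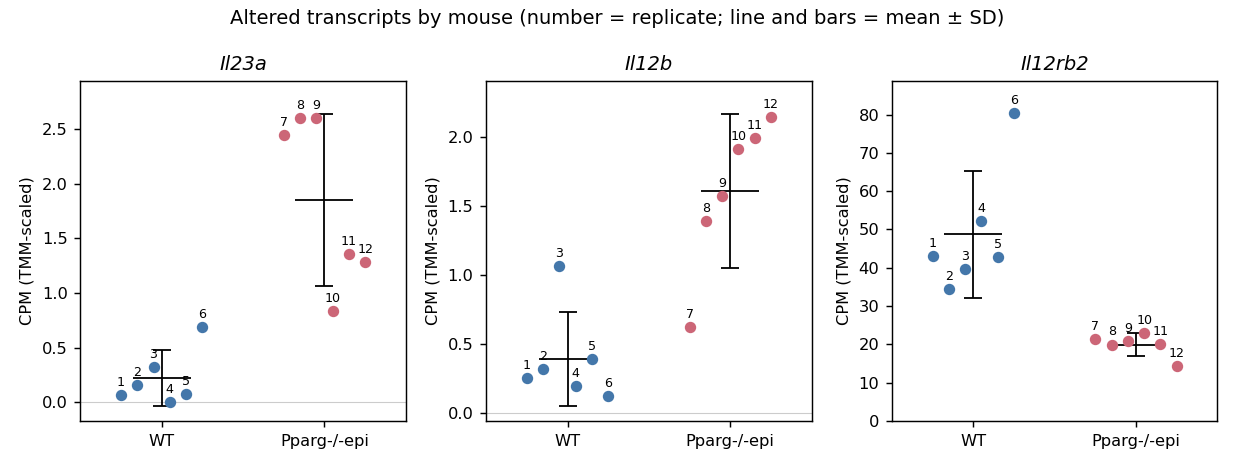
Level of the 3 altered genes in each mouse (vertical axis, TMM-scaled CPM; points are mice with their replicate number, the line and bars are the mean ± SD of 6 mice). For Il23a and Il12rb2 no Pparg-/-epi mouse falls within the WT range, and for Il12b WT replicate 3 at 1.07 CPM lies above Pparg-/-epi replicate 7 at 0.624 CPM.

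Among Pparg-/-epi mice the genes for the subunits of IL-23 did not follow each other. Replicates 7, 8 and 9 had the most Il23a, at 2.44, 2.61 and 2.60 CPM, and replicates 10, 11 and 12 had 0.832, 1.36 and 1.29 CPM. For Il12b the order was turned round, since replicates 10, 11 and 12 had the most, at 1.91, 1.99 and 2.15 CPM, and replicate 7 had the least. Across all 12 libraries the log2 CPM of both genes had a Pearson correlation of 0.677, and with the group means removed it was -0.179. These points share library depth, and Il23a rested on 10 to 47 counts per Pparg-/-epi mouse.

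The mice that were high in Il23a also differed in other measures. The names of replicates 7, 8 and 9 begin with 29-192 or 29-195 and those of replicates 10, 11 and 12 with 29-222 or 29-225, a number that the labels do not explain. Replicates 7, 8 and 9 were all female, whereas 1 of the other 3 was. Their RNA integrity numbers (RIN) were 8.6, 8.5 and 7.7, and those of replicates 10, 11 and 12 were 7.7, 5.7 and 7.1. The summed level of 5 endothelial markers was 120, 160 and 122 CPM in replicates 7, 8 and 9 and 22.7, 50.8 and 28.9 CPM in replicates 10, 11 and 12, and that of 12 macrophage and monocyte markers was 443, 485 and 421 CPM against 263, 288 and 291 CPM. The part of these measures in the level of Il23a was not tested.

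**Figure D3:**
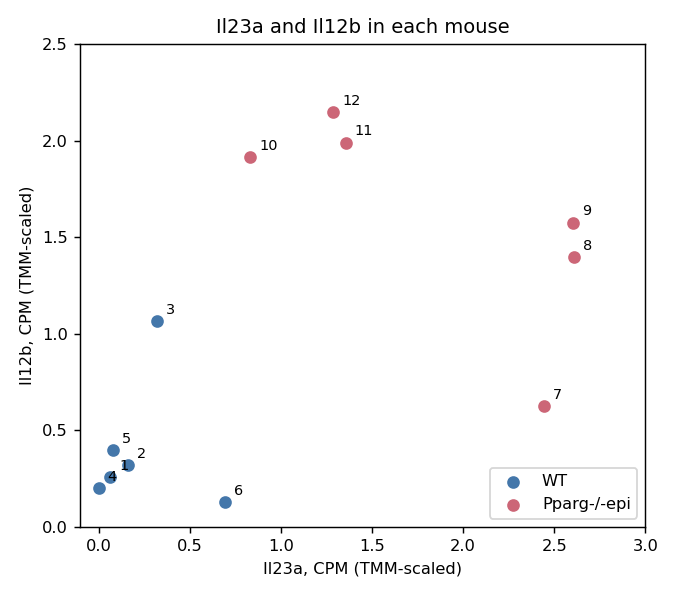
Il23a (horizontal axis, TMM-scaled CPM) against Il12b (vertical axis, TMM-scaled CPM), 1 point per mouse with its replicate number. Pparg-/-epi replicates 7, 8 and 9 lie to the right at 2.44 to 2.61 CPM of Il23a and replicates 10, 11 and 12 at the top left of their group at 1.91 to 2.15 CPM of Il12b, while 5 of the 6 WT mice lie below 0.4 CPM in Il12b.

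The upstream sequences of Il12b and Il12rb2 are shown because these are the altered genes of the axis that have an entry in the RefSeq promoter table (GRCm38.p6, the sequence of mm10), in which 6 of the 9 genes matched. Il12b has a well-studied inducible promoter with an NF-κB and a C/EBP element near its TATA box. The 250 bases before each start site were searched on both strands for 7 motifs. These were an NF-κB core (GGG and CC with 5 bases between them), the partial NF-κB site GGGGAATTT, the C/EBP core TTGCAA and the TATA box TATANAA. The others were the AP-1 site TGANTCA, the STAT site TTCNNNGAA and a PPAR-RXR element (a direct repeat of AGGTCA with 1 base between the copies). Capitals mark the matches. The Il12b window is chr11:44399813-44400062 (plus strand) and the Il12rb2 window chr6:67376189-67376438 (minus strand).
Il12b: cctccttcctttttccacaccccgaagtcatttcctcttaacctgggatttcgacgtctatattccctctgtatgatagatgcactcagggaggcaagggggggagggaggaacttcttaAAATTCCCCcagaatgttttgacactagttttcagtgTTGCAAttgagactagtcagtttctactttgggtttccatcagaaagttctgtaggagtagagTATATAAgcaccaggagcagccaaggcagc
Il12rb2: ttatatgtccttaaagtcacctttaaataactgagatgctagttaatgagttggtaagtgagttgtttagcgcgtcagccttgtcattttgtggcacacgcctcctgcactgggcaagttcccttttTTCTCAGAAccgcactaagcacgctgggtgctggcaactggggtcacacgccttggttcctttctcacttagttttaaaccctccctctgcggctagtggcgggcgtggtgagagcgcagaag

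In Il12b the partial NF-κB site lay on the minus strand from -130 to -122, the C/EBP core from -93 to -88 and the TATA box from -30 to -24 relative to the start site. Of 32851 promoter windows, 0.231% held the partial NF-κB site, 5.34% the C/EBP core and 10.4% the TATA box. The Il12b promoter was already known for such elements, so these shares do not weigh its matches, and nothing is drawn from how rare they are. In Il12rb2 a STAT site lay from -123 to -115, and 7.02% of windows held this motif. Positions in Il12rb2 are from the start site of its promoter entry, which lies upstream of the gene end at 67376137 used for counting. Neither window matched the NF-κB core, which 45.8% of windows held, or the PPAR-RXR element, which 0.0335% held. A match describes the letters and does not show that a factor binds there.

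Il12rb2 encodes the signalling chain of the IL-12 receptor, which binds JAK2 and STAT4, and lies on chromosome 6 from 67292018 to 67376137 (minus strand). WT mice had 673, 649, 372, 776, 543 and 1278 counts and Pparg-/-epi mice 413, 329, 343, 275, 221 and 167 counts. Il12rb2 was 48.8 ± 16.6 CPM in WT mice against 19.9 ± 2.93 CPM in Pparg-/-epi mice (mean ± SD, n = 6 each), with a range of 34.4 to 80.4 CPM in WT mice and of 14.3 to 22.9 CPM in Pparg-/-epi mice. The groups did not overlap, which was so for 7.9% of all genes. The log2 fold change was -1.29 (SE 0.19, adjusted p = 0.00115), and the exact permutation test gave p = 0.00216 (two-sided).

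Some reads counted on Il12rb2 may not be its own. In GENCODE M21 the last exon of Serbp1, an abundant gene on the opposite strand, runs to 67297736 and covers 2 of the 16 exons of Il12rb2, or 27.8% of its exonic bases, whereas in the annotation used for counting Serbp1 ends at 67289302, before Il12rb2 starts. The strand setting of the counting is not given in the sources used here, and without strand such reads cannot be told apart from Il12rb2. Serbp1 itself was 963 ± 157 CPM in WT mice against 1062 ± 110.5 CPM in Pparg-/-epi mice (log2 fold change 0.14, SE 0.13, adjusted p = 0.507). Its log2 CPM had a Pearson correlation of -0.286 with that of Il12rb2 over the 12 libraries. No exon of the other 8 genes is shared with another gene in GENCODE M21.

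Of the 6 name numbers of the mice, 29-222 was the only one found in both groups, in WT replicate 2 and Pparg-/-epi replicate 10. Between these mice Il23a went from 3 to 10 counts, Il12b from 6 to 23 counts and Il12rb2 from 34.4 to 22.9 CPM. In a fit with name number as a block, which was added after seeing the data and in which the genotype term rests on this pair, 0 of the 9 genes were altered in edgeR's quasi-likelihood test and 1, Il17rd, had an unadjusted p under 0.05. The log2 fold changes there were 2.32 for Il23a (SE 1.55), 2.56 for Il12b (SE 1.15) and -0.59 for Il12rb2 (SE 0.46). Name number and genotype cannot be told apart in the other 10 mice.

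Il12rb1, the chain common to the receptors for IL-12 and IL-23, lies on chromosome 8 from 70808449 to 70821423. It had 13, 29, 13, 23, 13 and 8 counts in WT mice against 45, 34, 33, 24, 11 and 9 counts in Pparg-/-epi mice. The level was 1.14 ± 0.424 CPM in WT mice against 1.69 ± 0.644 CPM in Pparg-/-epi mice (mean ± SD, n = 6 each). Pparg-/-epi replicates 7 to 10 lay at 2.00 to 2.34 CPM, above every WT mouse, while replicates 11 and 12 lay within the WT range at 0.995 and 0.773 CPM. The log2 fold change of 0.58 (SE 0.35, adjusted p = 0.297) was within the spread between mice. Il23r, the chain that completes the IL-23 receptor and was not among the 10 genes, had 4 to 23 counts in WT mice against 5 to 38 counts in Pparg-/-epi mice (log2 fold change 0.77, adjusted p = 0.218).

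The IL-17 receptor chains were well covered. Il17ra, the chain common to the receptors for IL-17A, IL-17C and IL-17F, on chromosome 6 from 120463197 to 120483727, was 42.6 ± 3.37 CPM in WT mice against 43.6 ± 6.24 CPM in Pparg-/-epi mice (mean ± SD, n = 6 each). Its log2 fold change was 0.03 (SE 0.10, adjusted p = 0.860). The WT mice lay between 39.4 and 48 CPM, and 5 of the 6 Pparg-/-epi mice between 39.9 and 43.2 CPM. Only replicate 12 stood outside, at 56.2 CPM.

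Il17rc pairs with Il17ra to bind IL-17A and IL-17F, and Il17re pairs with it to bind IL-17C. Both lie next to each other on the plus strand of chromosome 6, Il17re from 113458484 to 113470751 and Il17rc from 113471455 to 113483163. Il17rc ran from 86.1 to 143 CPM in WT mice and from 79.2 to 124 CPM in Pparg-/-epi mice (log2 fold change -0.22, SE 0.13, adjusted p = 0.286). Il17re ran from 24.7 to 38.3 CPM in WT mice and from 23.8 to 34.0 CPM in Pparg-/-epi mice (log2 fold change -0.18, SE 0.13, adjusted p = 0.387). For both genes the Pparg-/-epi mice fell almost wholly within the WT range.

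Il17rd, a membrane protein that restrains FGF receptor signalling and also joins IL-17 receptor complexes, lies on chromosome 14 from 27039001 to 27107286. It varied the most of the IL-17 receptor chains within a group, 4.34-fold from the lowest to the highest WT mouse and 2.92-fold among Pparg-/-epi mice, where Il17ra varied 1.22-fold and 1.41-fold. WT replicates 1 and 2 had 18.0 and 20.3 CPM and the other 4 WT mice 4.69 to 9.13 CPM. Pparg-/-epi mice lay between 5.06 and 14.8 CPM, and the log2 fold change was -0.20 (SE 0.38, adjusted p = 0.772). Without WT replicate 2 it was 0.03.

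Il22ra1, which binds IL-22 and also forms a receptor for IL-20 and IL-24, lies on chromosome 4 from 135728159 to 135755383. It was 167 ± 28.2 CPM in WT mice against 148 ± 20.5 CPM in Pparg-/-epi mice (mean ± SD, n = 6 each), with ranges of 129 to 200 CPM and 120 to 172 CPM. The log2 fold change was -0.18 (SE 0.13, adjusted p = 0.387). Exact permutation tests of log2 CPM for the 6 receptor chains that were not altered gave two-sided p from 0.158 to 0.799.

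**Figure D4:**
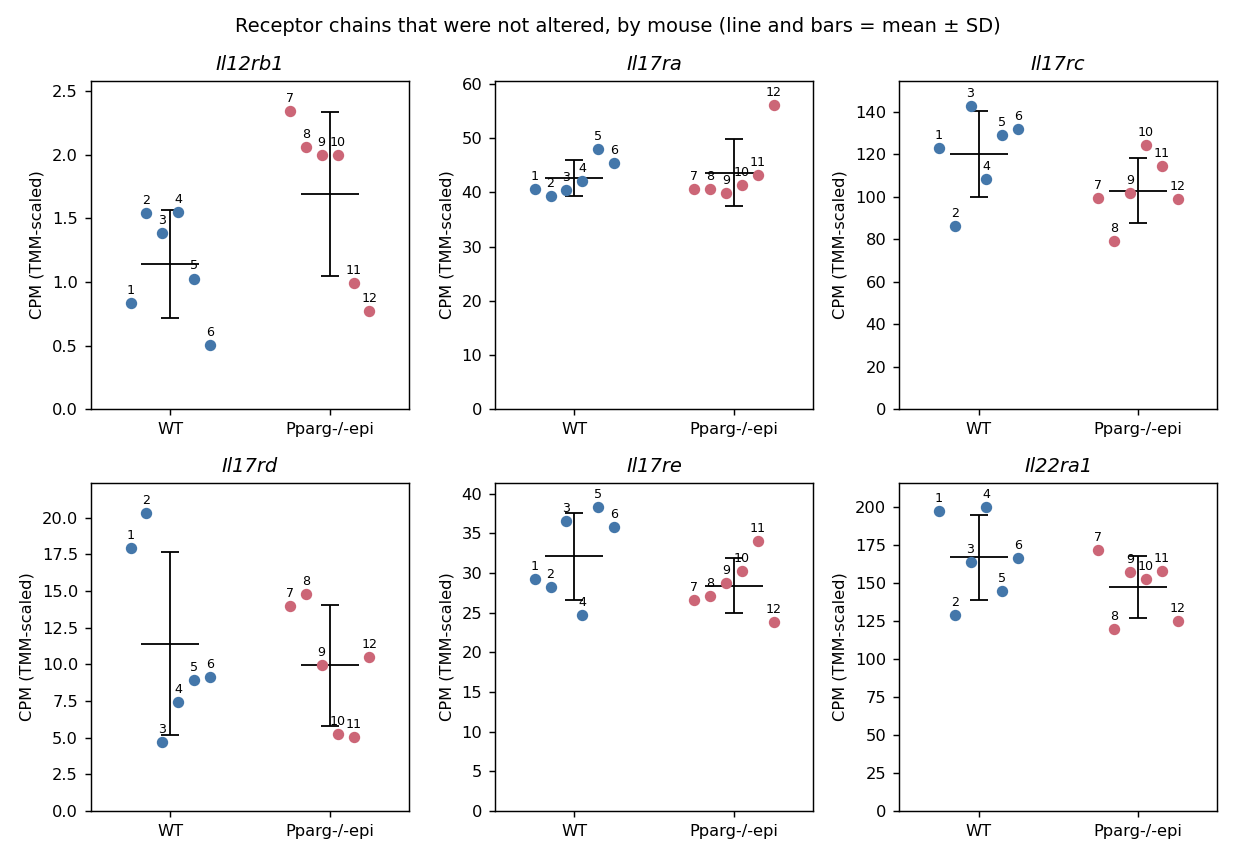
Level of the 6 receptor chains that were not altered, in each mouse (vertical axis, TMM-scaled CPM from 0; points are mice with their replicate number, the line and bars are the mean ± SD of 6 mice). The groups overlap in all 6 panels, with WT replicates 1 and 2 highest for Il17rd and Pparg-/-epi replicate 12 highest for Il17ra at 56.2 CPM.

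Scaled to exon length (RPKM, CPM per kilobase), the receptor chains Il17rc and Il22ra1 were the most abundant of the 9 genes in both groups. In WT mice Il17rc was highest at 50.7 ± 8.49 RPKM and did not overlap with Il22ra1, the next at 28.7 ± 4.84 RPKM. Then came Il12rb2 at 16.6 ± 5.62, Il17re at 10.7 ± 1.83 and Il17ra at 10.7 ± 0.848 RPKM, each with a range that overlapped with the one before it, and below them with no overlap Il17rd at 1.39 ± 0.760 RPKM. Il12rb1 was at 0.396 ± 0.148, Il23a at 0.161 ± 0.189 and Il12b at 0.157 ± 0.136 RPKM, again with overlapping ranges. In Pparg-/-epi mice Il12rb2 stood at 6.75 ± 0.995 RPKM, below Il17ra at 11.0 ± 1.57 and Il17re at 9.5 ± 1.17 RPKM with no overlap with Il17re, and Il23a at 1.37 ± 0.579 RPKM came level with Il17rd at 1.21 ± 0.505 RPKM. Il12b at 0.642 ± 0.222 and Il12rb1 at 0.59 ± 0.224 RPKM were the lowest, and the ranges of neighbours from Il23a downwards overlapped.

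The difference between the genotypes was also compared between female and male mice in a model with genotype, sex and their product. Of the 9 genes, 0 passed an adjusted p of 0.05 for the product in edgeR's quasi-likelihood test and 0 had an unadjusted p under 0.05, where 0 and 741 of all genes did. With 2 to 4 mice in each combination, the design leaves room for differences that it could not show.

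The genes around these 9 were described by lists fixed by role. Of the 5 ligand subunits of the IL-12 family, 3 are in the table. Il23a and Il12b entered it through the Pparg-/-epi mice, as given above, so no share is drawn from this list. Ebi3, the subunit of IL-27 and IL-35, which was above 0.5 CPM in all 12 mice, was also higher (log2 fold change 1.31, SE 0.35, adjusted p = 0.0235), with 8 to 29 counts in WT mice against 13 to 44 in Pparg-/-epi mice. The call for Ebi3 was lost without WT replicate 4, 5 or 6 and without Pparg-/-epi replicate 7 or 11. It was also lost in the female mice alone, without the 4 WT mice named 29-226 and with name number as a block. Of the 5 receptor chains of the family, which are all listed, only Il12rb2 was altered, where 10.3% of all genes were. Their median log2 fold change was 0.58, where the median of all genes was -0.01. Il27ra, named after its values were seen because other tests called it, showed a log2 fold change of 1.15 (adjusted p = 0.0511), and Il6st, the gp130 chain, one of -0.01 (adjusted p = 0.993).

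Of 14 kinases, transcription factors and interferon or IL-18 genes that act with IL-12, 13 are in the table, of which 2 were higher and 2 were lower (30.8% of the 13, against 10.3% of all genes), with a median log2 fold change of 0.06. Stat4, the factor through which IL-12 signals, fell by 1.57 in log2 units (SE 0.37, adjusted p = 0.0134), from 6.63 ± 3.45 CPM to 2.23 ± 0.547 CPM (mean ± SD, n = 6 each). The IL-18 genes, whose product acts together with IL-12, moved in both directions: Il18 rose by 1.01 and the receptor chain Il18rap by 1.33 (adjusted p = 0.00563 and 0.00487), and the receptor chain Il18r1 fell by 0.78 (adjusted p = 0.0122). Jak2 and Tyk2, the kinases of these receptors, had log2 fold changes of 0.06 and -0.15 (adjusted p = 0.817 and 0.296), and Stat3, the main factor downstream of IL-23, one of 0.42 (adjusted p = 0.0639). None of Stat4, Il18, Il18rap and Il18r1 was altered without the 4 WT mice named 29-226, and in the female mice alone only Stat4 was. With name number as a block, only Il18 of these genes was altered.

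Of the 6 ligands of the IL-17 family, only Il17d is in the table, with 3 to 19 counts in WT mice against 6 to 18 in Pparg-/-epi mice (log2 fold change 0.70, adjusted p = 0.292). Il17a, Il17b, Il17c, Il17f and Il25 are not listed, and neither are Il22, Il19, Il20 and Il24, so no level is given for them. Of the 5 IL-17 receptor chains, which add Il17rb, the receptor for IL-25, 0 were altered in edgeR's quasi-likelihood test, in its likelihood ratio test or in DESeq2, and 1 had an unadjusted p under 0.05. That gene was Il17rb, at 10.1 ± 2.59 CPM in WT mice against 7.04 ± 0.839 CPM in Pparg-/-epi mice (log2 fold change -0.52, adjusted p = 0.0691).

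Of 20 genes that carry the IL-17 receptor signal, 3 were altered (15% of the list, near the 10.3% of all genes, median log2 fold change 0.04). Zc3h12a, an RNase that degrades inflammatory transcripts and is itself induced by IL-17, rose from 38.2 ± 6.53 CPM to 83.7 ± 14.2 CPM (mean ± SD, n = 6 each, log2 fold change 1.13, adjusted p = 4.51e-04). Its groups did not overlap, which was so for 7.9% of all genes. Nfkbiz, the nuclear cofactor IκBζ that IL-17 induces in keratinocytes, showed a log2 fold change of 0.62 (adjusted p = 0.0143), and it was no longer altered without WT replicate 1, WT replicate 5 or Pparg-/-epi replicate 12, in the female mice alone or without the 4 WT mice named 29-226. Traf5 fell by 1.14 in log2 units (adjusted p = 3.45e-04). With name number as a block, 0 of the 20 genes were altered in edgeR's quasi-likelihood test. The adaptor Traf3ip2 (Act1), which binds the IL-17 receptor, was 53.9 ± 5.58 CPM in WT mice against 57.3 ± 7.08 CPM in Pparg-/-epi mice (log2 fold change 0.09, adjusted p = 0.615).

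Of 26 genes known to be induced by IL-17 in keratinocytes, 15 are in the table, and of these 11 were higher and 0 were lower (73.3%, against 5.19% of all genes that were higher, median log2 fold change 1.99). Zc3h12a and Nfkbiz are counted in this list as well as among the signalling genes, and Lcn2 was above 0.5 CPM in 3 WT mice and all 6 Pparg-/-epi mice. Those with the largest log2 fold changes were Il1f6 (3.90), Krt16 (2.92), Lcn2 (2.81), S100a9 (2.74), S100a8 (2.74) and Krt6a (2.52), with adjusted p from 7.97e-04 to 0.016. IL-1, IL-36, TNF and wounding also induce many of these genes. The list was not chosen independently of earlier results of these data, so no conclusion is drawn from its share. In the female mice alone 7 were altered, and 5 of those were among the 11. Without the 4 WT mice whose names begin with 29-226, 5 of the 11 were altered. With name number as a block, 3 genes of the list were altered, and 2 of those were among the 11. Among the IL-22 and IL-20 genes, 5 of 9 are in the table and 1 was altered, where 10.3% of all genes were. Il20ra, a chain of the receptor for IL-19, IL-20 and IL-24, fell from 136 ± 32.7 CPM to 46.8 ± 25 CPM (log2 fold change -1.54, adjusted p = 0.00691). This call was lost without the 4 WT mice named 29-226 and with name number as a block. Il10rb, which completes the IL-22 receptor, showed a log2 fold change of 0.15 (adjusted p = 0.277), and the decoy receptor Il22ra2 one of -0.58 (adjusted p = 0.287).

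**Figure D5:**
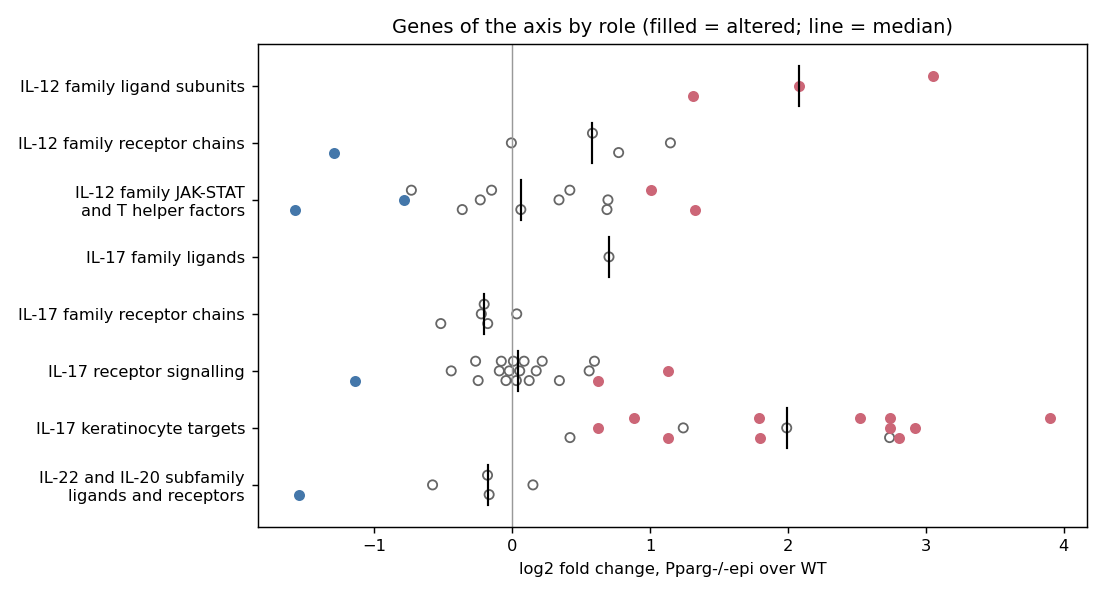
Log2 fold change in Pparg-/-epi over WT mice (horizontal axis) of each gene of the axis in the table, grouped by role (rows; filled points were altered, open points were not, the vertical line is the median of the list). The IL-17 receptor chains and signalling genes have medians of -0.20 and 0.04, while the 15 keratinocyte targets run from 0.42 to 3.90 with a median of 1.99.

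Markers of cells that make or answer these cytokines were measured in the same libraries. Beside each count of altered markers below, 10.3% of all genes were altered (5.19% were higher and 5.08% were lower). The 15 Langerhans and dendritic cell markers are all in the table, and their summed level was 1190 to 3090 CPM in WT mice against 1530 to 1810 CPM in Pparg-/-epi mice. Of the 15, 0 were lower and 1 was higher, near the shares of all genes. The higher gene was Ccr7, the homing receptor of migrating dendritic cells, above 0.5 CPM in 2 WT mice and all 6 Pparg-/-epi mice, with 2 to 15 counts in WT mice against 20 to 35 in Pparg-/-epi mice (log2 fold change 2.07, adjusted p = 0.00968). Cd207 (langerin) showed a log2 fold change of 0.00 (adjusted p = 0.996). The 12 macrophage and monocyte markers summed to 95.9 to 836 CPM in WT mice against 263 to 485 CPM in Pparg-/-epi mice, and none was altered in edgeR's quasi-likelihood test.

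Of the 12 T cell markers, 10 are in the table. Of these 2 were higher (Cd8a and Icos) and Cd3e was lower (log2 fold change -0.75, adjusted p = 0.0325), where 5.19% and 5.08% of all genes were. Their summed levels were 153 to 263 CPM in WT mice against 201 to 259 CPM in Pparg-/-epi mice. Of 10 markers of IL-17-producing gamma delta T cells and innate lymphoid cells, 9 are in the table, 3 were higher and 1 (Gata3) was lower. Of the 3, Blk and Ccr6 were above 0.5 CPM in 2 WT mice each and in 6 and 5 Pparg-/-epi mice, so they passed the filter mainly through the group in which they were higher, and no share is drawn from this count. Cd163l1, a scavenger receptor of these gamma delta T cells, rose from 2.05 ± 0.791 CPM to 8.48 ± 2.86 CPM (mean ± SD, n = 6 each, log2 fold change 2.03, adjusted p = 9.4e-04), and Blk, a kinase they need, from 0.432 ± 0.428 CPM to 2.71 ± 0.715 CPM (log2 fold change 2.56, adjusted p = 0.0052). For Cd163l1 the groups did not overlap, which was so for 7.9% of all genes. Those of Blk did not overlap either, but nothing is drawn from its separation or adjusted p because of the filter. Ccr6 rose by 2.13 (adjusted p = 0.0489) with overlapping groups. The summed level of the list overlapped between the groups, at 623 to 1440 CPM in WT mice against 445 to 808 CPM in Pparg-/-epi mice.

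Of the remaining lists, the 6 fibroblast and 5 skeletal muscle markers held none that was altered in edgeR's quasi-likelihood test. The muscle markers summed to 9059 CPM in WT replicate 5 and to at most 354 CPM in any other library. The endothelial markers summed to 33.9 CPM on average in WT mice (4.34 to 102) and to 84.1 CPM in Pparg-/-epi mice (22.7 to 160), with log2 fold changes of 1.02 to 1.79. Emcn alone of the 5 was altered, where 10.3% of all genes were. Of 6 natural killer cell markers 3 are listed and none was altered in edgeR's quasi-likelihood test, with sums of 12.5 to 26.5 CPM in WT mice against 7.65 to 17.8 CPM in Pparg-/-epi mice. Of 7 neutrophil markers 3 are in the table, with Cxcr2 higher, Mmp9 lower and Ly6g not listed. The 5 sebocyte markers in the table included 4 that were lower. Over all genes, 5.19% were higher and 5.08% were lower. The part of any of these cells in the levels of Il23a, Il12b and Il12rb2 was not tested.

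The genes whose log2 CPM over the 12 libraries was most like that of each altered gene were named as a description. For Il23a these were Il4ra, Syt8 and Icam1 (Pearson correlation 0.95, 0.949 and 0.947, and 0.847, 0.952 and 0.835 with the group means removed). For Il12b they were Slc25a5, Ccr7 and Pmm1 (0.948, 0.944 and 0.942, and 0.826, 0.817 and 0.865). For Il12rb2 they were Klhl5, Trim66 and Glb1 (0.963, 0.963 and 0.956, and 0.803, 0.808 and 0.792). These were the highest of 14533 correlations on 12 libraries that share depth and genotype, and the 3 sets had no gene in common.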

How the data were processed

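The authors deposited raw read counts per gene for 12 libraries of scraped mouse epidermis, 1 per mouse, without normalization. Per the labels and the study's methods, paired-end reads were aligned to mm10 with STAR 2.5.2b, low-quality and multi-mapped reads were removed, and reads were counted with featureCounts (Subread 1.5.1) on refGene. The table lists 14533 genes, each above 0.5 CPM in at least 6 libraries, and 2800 blank rows were dropped. Columns were matched to mice by the mouse name in the labels, and for Pparg-/-epi replicates 11 and 12, whose labels give only a library number, by the study's run sheet.

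Counts were compared with edgeR 4.0.16 (R 4.3.3) by the quasi-likelihood test after TMM normalization, with genotype as the only term. The likelihood ratio test named in the study's methods and DESeq2 1.42.0 were alternatives, and the other alternatives are given at the end. The genes and lists were chosen with earlier results of these data known. The test was run on simulated counts first. RPKM used the deposited exon lengths, log2 CPM a prior count of 2, and the floor 3 counts. Genes named outside the axis were its signalling partners, altered genes of the lists (up to 6 a list by size), markers, and the 3 genes most correlated with each altered gene. Serbp1 was named after its overlap with Il12rb2 was seen. Figures were drawn with matplotlib 3.10.9.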

Additional observations from a re-analysis of the deposited data

Results flagged for a closer look

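Of 18 groups of 6 mice examined (9 genes in each genotype), 3 held a mouse whose gap to its nearest neighbour, as a share of the range of its group, was above Dixon's 95% critical value, where chance gives about 1 group in 20. WT replicate 3 had the most Il12b of the WT mice, 1.07 CPM from 10 counts, with a gap of 0.713 of the range. Pparg-/-epi replicate 12 had the least Il12rb2 of its group, 14.3 CPM, with a gap of 0.657, and the most Il17ra, 56.2 CPM, with a gap of 0.796. With WT replicate 3 left out, Il12b had a log2 fold change of 2.59.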

How the results depend on the processing

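Il23a, Il12b and Il12rb2 were altered in all 12 fits that each left out 1 mouse, with log2 fold changes of 2.79 to 3.93 for Il23a (3.93 without WT replicate 6), 1.89 to 2.59 for Il12b and -1.39 to -1.09 for Il12rb2. They were also altered with the likelihood ratio test, DESeq2, total counts or relative log expression factors in place of TMM, robust dispersions, and sex, RIN or age as a covariate. A mean of at least 20 counts left Il23a and Il12b untested, so that 1 of the 9 genes and 1 IL-12 family ligand subunit were altered. In the 7 female mice alone Il23a was not altered (2.95, adjusted p = 0.0902), and 651 of all genes were, against 1493 in all mice. With 1 mouse left out, the count over all genes ran from 1116 (without Pparg-/-epi replicate 9) to 2249 (without WT replicate 2). Leaving out the 4 WT mice named 29-226, which was chosen after seeing the data, gave 389 altered genes, and Il12b was not among them (2.44, adjusted p = 0.0557). The count of IL-12 family receptor chains was 2, with Il27ra added, by the likelihood ratio test and DESeq2, and 1 to 2 with a mouse left out (2 without WT replicate 2 or Pparg-/-epi replicate 12). That of IL-17 receptor chains was 0 to 1 with a mouse left out, the 1 being Il17rb without WT replicate 3. In the only pair of mice from both groups that share a name number (29-222, WT replicate 2 and Pparg-/-epi replicate 10), log2 differences with no test were 1.71 for Il23a, -0.59 for Il12rb2, 0.53 for Il17rc, -1.93 for Il17rd, 0.10 for Il17re and 0.24 for Il22ra1. With name number as a block, added after seeing the data, 0 of the 9 genes and 238 of all genes were altered (Il23a 2.32, adjusted p = 0.384, Il12b 2.56, adjusted p = 0.214, Il12rb2 -0.59, adjusted p = 0.457), and the genotype term rests on that pair. No paired analysis over all mice was possible, because 29-222 was the only name number found in both groups. The study describes the WT mice as sibling controls, and the labels do not say which mice were siblings. The cause of these changes was not tested. Depth limits Il23a and Il12b most, at 0 to 11 counts in WT mice. Both entered the table through the Pparg-/-epi mice, and none of the fits above removes that selection.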

Other observations

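Il17rc and Il17re, which lie next to each other on the same strand, had a Pearson correlation of 0.704 in log2 CPM over the 12 libraries and of 0.644 with the group means removed. Il17rd ran against Il17rc, with correlations of -0.631 and -0.760. Il12rb1 and Il17ra had correlations of -0.608 and -0.724. These are the strongest of 36 pairs with the group means removed, given as a description of 12 libraries.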
